A study of Homo sapiens with 4 samples.

Results

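The comparison described here sets HEK293T cells that received a plasmid for the T1202K mutant of PBRM1 against the same cells that received wild-type PBRM1. HEK293T is a transformed human embryonic kidney line. Per the labels, PBRM1 had been knocked out in it with CRISPR, every construct carried GFP at PBRM1, and cells were collected at 48 h. The series holds 4 libraries, 1 for each of wild type (WT), P1048R, T1202K and C1233W. All 4 therefore share the knockout background and the transfection, and none is an untransfected control. The labels do not say whether the knockout line was 1 clone. RNA-seq counts were compared for the 15631 genes, of 58735 in the table, that reached at least 1 CPM (counts scaled to a common library size) in WT or T1202K. In WT the count just inside this limit was 10 reads (1.07 CPM) and the count just outside it 9 (0.963 CPM). In T1202K these counts were 12 reads (1.06 CPM) and 11 (0.971 CPM).

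PBRM1, also called BAF180, is the defining subunit of PBAF, a form of the SWI/SNF complex that moves nucleosomes with the energy of ATP. Its bromodomains bind acetylated histone tails, and its BAH (bromo-adjacent homology) domains and HMG box lie further towards the carboxy terminus. PBRM1 is a tumour suppressor gene that is often lost in clear cell renal carcinoma. The question the design poses is how the transcriptome differs when the re-expressed protein carries the threonine-to-lysine change T1202K in a region downstream of the bromodomains.

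The reference codon behind the mutant's name is shown because the rest of the comparison turns on it. Of 18 coding PBRM1 transcripts in GENCODE 29, 3 encode the residues that the names of all 3 mutants imply at their stated positions. In those transcripts the threonine codon changed in T1202K is ACA, on the minus strand of chromosome 3 at 52576626 to 52576628 (GRCh38), inside a coding exon. The coding sequence around it is given 5′ to 3′ with that codon in capitals.
PBRM1 around T1202: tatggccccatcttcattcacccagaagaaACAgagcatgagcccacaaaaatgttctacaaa
The lysine codon of the plasmid is not stated, and gene counts carry no base-level information on it.

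The WT library held 10246250 counted reads and the T1202K library 10993748. A floor of 3 reads equalled 0.321 CPM in WT and 0.265 CPM in T1202K. Both counts were increased by 0.5 before the log2 ratio of T1202K over WT was formed. A gene is called higher or lower below under a size rule, which asks for a log2 ratio of 1 or more in either direction (2-fold) and a 95% counting interval that leaves out 0. With 1 library per construct no difference has a replicate check and no p-value was made, so every statement compares these libraries and not the conditions. Intervals in parentheses cover counting error only. Mitochondrially encoded RNA made up 8.48% of reads in WT, 5.53% in T1202K, 5.63% in P1048R and 6.23% in C1233W, so WT stood highest of the 4 libraries by this measure. By the same rule, 156 genes (0.998%) separated T1202K from P1048R, with 92 higher in T1202K (0.589%) and 64 lower (0.409%). Against C1233W they were 426 (2.73%), with 77 higher (0.493%) and 349 lower (2.23%). Both pairs were counted over the same 15631 genes. Genes that reached 1 CPM only in P1048R or C1233W were thus left out. In bulk RNA, fewer cells with a transcript and less of it per cell cannot be told apart.

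PBRM1 itself (chromosome 3, 52545352 to 52685917, ENSG00000163939) was abundant in every library. It stood at 22768 CPM in WT, 15262 in T1202K, 8805 in P1048R and 60509 in C1233W. T1202K was thus lower than WT, by a log2 ratio of −0.58 (−0.59 to −0.57), short of 2-fold. The constructs were not matched in PBRM1 level, and the part of that difference in the results below was not tested. Gene-level counts pool reads of the plasmid with any from the chromosomal gene.

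The other subunits particular to PBAF did not pass the rule. BRD7, a bromodomain subunit, had a log2 ratio of −0.44 (−0.52 to −0.35), PHF10, a PHD finger subunit, −0.30 (−0.38 to −0.21), and ARID2, the DNA-binding subunit, 0.05 (−0.11 to 0.20). Among 15 subunits shared between SWI/SNF forms, 1 was higher and none lower, against 5.26% of all genes tested that passed in either direction. This was ACTL6B, the neuronal actin-related subunit, with 1 read in WT and 15 in T1202K. Its log2 ratio was 3.09, and the counting interval of 0.93 to 9.03 shows how little those reads fix. SMARCD3 followed at 0.84 (0.60 to 1.08), whereas the ATPase gene SMARCA4 stood at −0.04 (−0.11 to 0.03). Among 12 subunits of BAF and non-canonical BAF, BICRAL, a subunit of the non-canonical form, was higher at 1.04 (0.77 to 1.33). Its paralog BICRA stood at 0.82 (0.50 to 1.15) and DPF1, a subunit of neuronal BAF, at 0.77 (0.52 to 1.03), both short of the rule.

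Across all 15631 genes, 822 passed the size rule (5.26%): 467 were higher in T1202K (2.99%) and 355 were lower (2.27%). The median log2 ratio of all genes was −0.01. The 2 directions differed by level of expression. Among 10250 genes with a mean of at least 10 CPM, 143 were higher and 34 lower, and 196 of the genes past the rule had fewer than 20 reads in both libraries. Changes beyond 3-fold were equally split, at 143 higher and 143 lower. Past 8-fold there were 14 higher and 7 lower. The split depended on scaling: with library totals in place of TMM factors the all-gene median was 0.17, and 798 genes were higher and 216 lower.

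**Figure D1:**
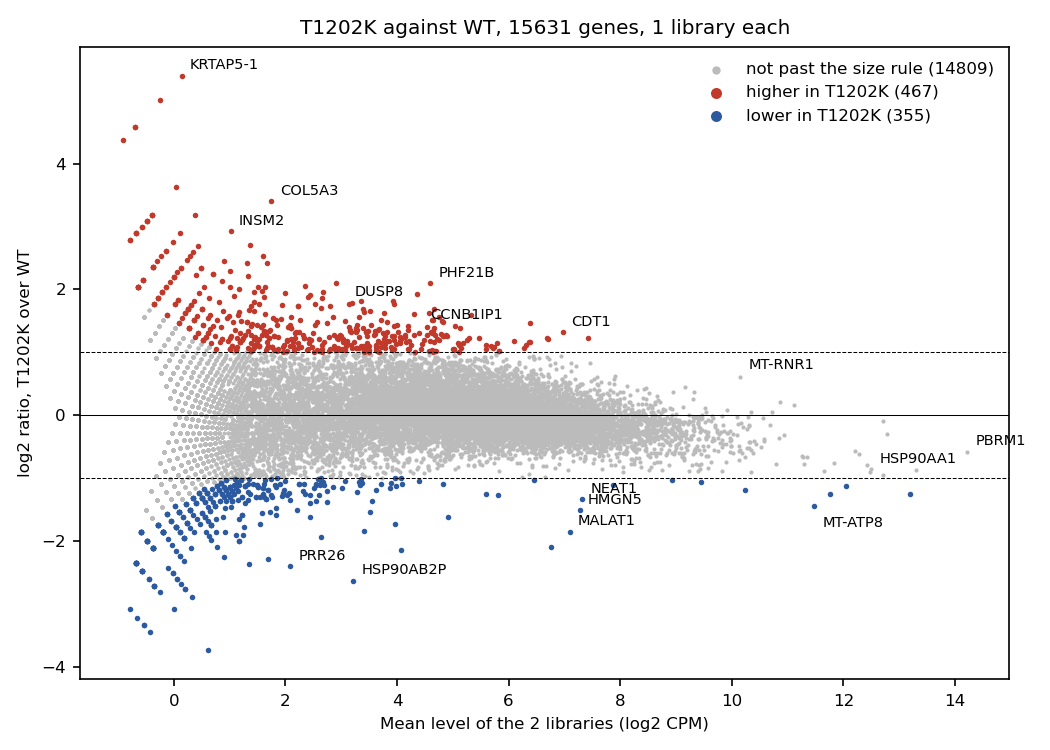
Log2 ratio of T1202K over WT against the mean log2 CPM of the 2 libraries for 15631 genes, with the 467 higher and 355 lower genes coloured and dashed lines at 2-fold. Genes at 2 to 8 CPM spread widely on both sides, and the coloured genes of highest mean CPM lie on the lower side and are mitochondrially encoded.

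The coding genes higher in T1202K with the firmest counting intervals were of mixed function and mostly with few reads. PHF21B (chromosome 22, 44881162 to 45009999), a PHD finger protein gene, had 85 reads in WT and 442 in T1202K, 9.09 against 39.0 CPM. Its log2 ratio was 2.09 (1.76 to 2.45). COL5A3 (chromosome 19, 9959561 to 10010471), a collagen V chain gene, rose from 5 reads to 70, a ratio of 3.40 (2.24 to 5.20). DUSP8 (chromosome 11, 1554044 to 1571920), a phosphatase of stress-activated MAP kinases, rose from 80 reads to 369 (1.92, 1.58 to 2.30). KRTAP5-1 lies close to DUSP8 on chromosome 11 and encodes a keratin-associated protein. It had 0 reads in WT and 25 in T1202K and was at least 6.88-fold higher, though its family of similar genes makes its count uncertain.

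The 12 also held transcription factor genes. INSM2, a zinc finger factor of endocrine and neural cells on chromosome 14, had 4 reads in WT and 41 in T1202K (2.93, 1.62 to 5.02). PBX4, a TALE homeobox gene on chromosome 19, had 26 and 138 reads (2.11, 1.52 to 2.80). PAX5, the B-cell commitment factor, had 0 reads in WT and 14 in T1202K, at least 3.85-fold higher. At 1.24 CPM PAX5 was still close to the lower limit of measurement. ZNF416 rose from 65 to 269 reads (1.76, 1.38 to 2.19), with part of its exons shared with ZIK1.

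The rest of the 12 leading coding genes were PIWIL4, FBLL1, HIST2H4A and FBXL6. PIWIL4, a Piwi protein gene known from the germ line, had 8 reads in WT and 59 in T1202K (2.53, 1.53 to 3.88). FBLL1, a paralog of the nucleolar methyltransferase fibrillarin, had 2 and 27 reads (3.18, 1.49 to 6.60). FBXL6, an F-box protein gene with exons that overlap SLC52A2, had 112 and 438 reads (log2 ratio 1.69). All 12 were also above WT in P1048R and C1233W, which share that single WT library. COL5A3, for example, stood at 0.535 CPM in WT, 6.18 in T1202K, 15.4 in P1048R and 2.42 in C1233W. PHF21B stood at 52.9 CPM in P1048R and 35.2 in C1233W. For all 12 genes, therefore, WT held the lowest of the 4 values. The 12 were chosen by their ratio to this same WT library, which favours genes with a low WT count.

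On the lower side, 4 of the 12 leading coding genes were mitochondrially encoded and are described below. PRR26 (chromosome 10, 649948 to 669581), an open reading frame of unknown role, had 67 reads in WT and 15 in T1202K, with a ratio of −2.40 (−3.35 to −1.61). HMGN5, an X-linked HMG gene whose product binds nucleosomes, was at 229 CPM in WT and 80.2 in T1202K (−1.51, −1.63 to −1.40). YJEFN3 fell from 223 reads to 81 (−1.73, −2.12 to −1.36), with part of its exons shared with NDUFA13. RAB13, a small GTPase gene of vesicle traffic to cell junctions, fell from 736 to 372 reads (−1.26, −1.45 to −1.08).

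PTMS, which encodes parathymosin, was at 320 CPM in WT and 149 in T1202K (−1.10, −1.19 to −1.02). RPS27, a ribosomal protein gene next to RAB13 on chromosome 1, was at 947 and 455 CPM (−1.06, −1.11 to −1.01). The low-count genes in this set were COL6A3, a collagen VI chain gene, with 19 and 3 reads (−2.76, −5.34 to −1.18), and MUC6, a gastric mucin gene, with 29 and 7 (−2.25, −3.76 to −1.11). WT was the highest of the 4 libraries for each of these genes, as it was the lowest for the set that rose. Choice by the ratio to this WT library favours a high WT count here. With library totals as the scale, PTMS and RPS27 were short of 2-fold. With a trend on GC content and length removed, RPS27 was again short of it (−0.78) and PTMS was not (−1.44).

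**Figure D2:**
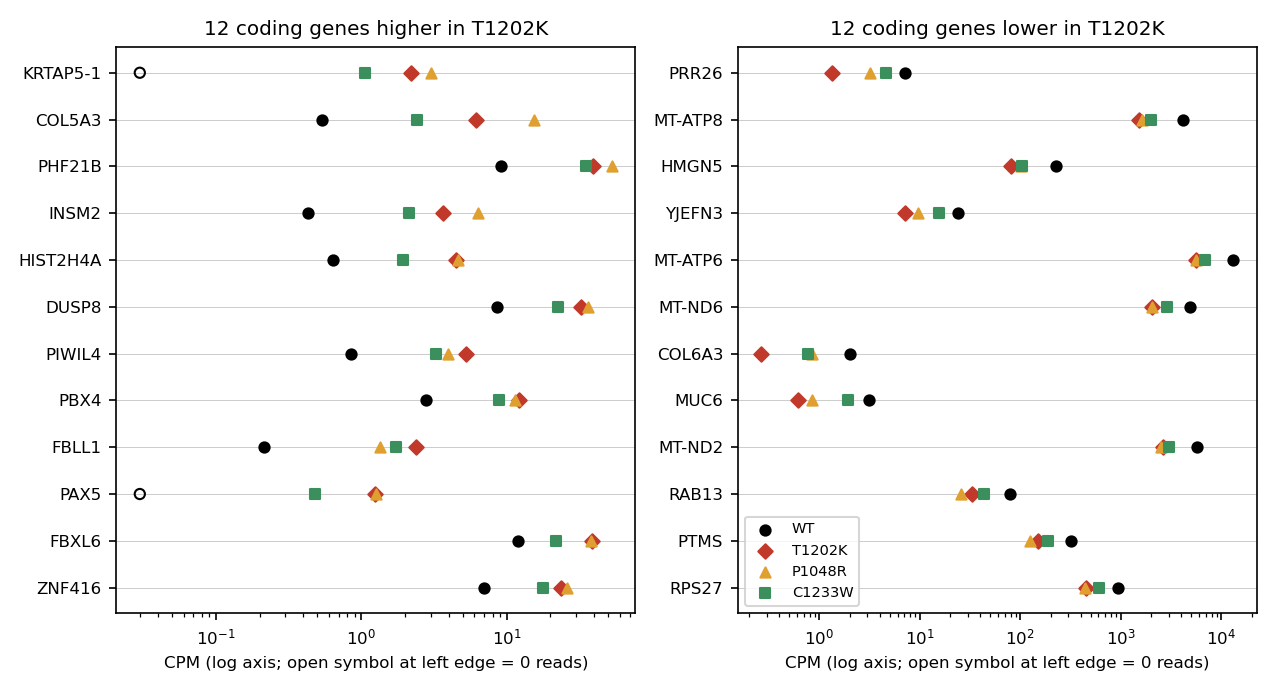
CPM on a log axis of the 12 coding genes higher and the 12 lower in T1202K whose counting intervals lie farthest from 0, in each of the 4 libraries (1 point per library, open points 0 reads). The WT point is the lowest in every gene on the left and the highest in every gene on the right, which the choice by ratio to WT favours. The order of the 3 mutants varies from gene to gene.

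Outside coding genes, 5 led on each side. The highest were AP000640.1 (0 reads in WT and 19 in T1202K, at least 5.23-fold), AC131159.1 (0 and 14, at least 3.85-fold), TUBB2BP1, a tubulin pseudogene (1 and 22; ratio 3.63, 1.55 to 9.55), SLC7A5P1, a copy of the amino acid transporter gene SLC7A5 (9 and 61), and PVT1. PVT1 is a long non-coding RNA gene downstream of MYC, and rose from 63 reads to 270 (1.81, 1.42 to 2.24). MYC had 798 reads in WT and 735 in T1202K (−0.40, −0.54 to −0.25) and did not pass.

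The lowest were AC022182.3 (27 reads in WT and 2 in T1202K; −3.74, −7.15 to −2.04), HSP90AB2P, an HSP90 pseudogene (150 and 29; −2.63, −3.27 to −2.07), AC245060.5 (257 and 70), the mitochondrial tRNA gene MT-TE and MALAT1. MALAT1, the RNA of nuclear speckles on chromosome 11 (65497688 to 65506516), stood at 214 CPM in WT, 59.3 in T1202K, 71.5 in P1048R and 129 in C1233W. Its ratio was −1.85 (−1.98 to −1.72). NEAT1, its neighbour and the scaffold RNA of paraspeckles, stood at 227 CPM in WT, 90.5 in T1202K and 124 in P1048R, and at 246 in C1233W. T1202K held the lowest value of the 4 for both RNAs. Of 13 genes on the list of paraspeckle and nuclear speckle RNAs and proteins, these 2 RNAs alone passed, beside 2.27% of all genes lower. Of the 13, 11 had ratios below 0, with a median of −0.20. The ratios of the proteins lay on the same side but were smaller. SFPQ stood at −0.29 (−0.33 to −0.26), NONO at −0.28 (−0.32 to −0.24) and the speckle scaffold SON at −0.14 (−0.19 to −0.09).

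Among the 49 gene lists with at least 5 measured members, mitochondrially encoded genes had the lowest median. The mitochondrial genome is read from both strands as long precursors, which are cut into ribosomal RNAs, mRNAs for respiratory chain and ATP synthase subunits, and tRNAs. Of the 15 rRNA and mRNA genes, 4 were lower in T1202K (2.27% of all genes) and none higher, and 14 had a ratio below 0, with a median of −0.79. The 4 were the ATP synthase genes MT-ATP8 (4142 CPM in WT and 1527 in T1202K; −1.44, −1.47 to −1.41) and MT-ATP6 (13203 and 5561; −1.25, −1.26 to −1.23), and the complex I genes MT-ND6 (4866 and 2053; −1.24, −1.27 to −1.22) and MT-ND2 (5764 and 2645; −1.12, −1.14 to −1.10). MT-ATP8 and MT-ATP6 overlap in sequence and share reads.

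The mitochondrial genes did not move as 1 block. The cytochrome oxidase gene MT-CO1 stood at −0.30 (−0.31 to −0.28), and MT-CO2 at −0.61 (−0.63 to −0.59). The large ribosomal RNA MT-RNR2 stood at −0.10 (−0.11 to −0.08). The small ribosomal RNA MT-RNR1 went the other way, at 902 CPM in WT and 1374 in T1202K, a ratio of 0.61 (0.57 to 0.65) that did not reach the rule. The spread between MT-RNR1 and MT-ATP8 was far wider than the counting intervals. P1048R and C1233W, set against the same WT library, gave ratios of 0.69 and 0.80 for MT-RNR1 and of −1.34 and −1.06 for MT-ATP8.

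Of 16 mitochondrial tRNA genes measured, 4 were lower and none higher, beside 2.27% of all genes lower, with a median of −0.64. These were MT-TE (1637 reads in WT and 466 in T1202K; −2.09, −2.24 to −1.94), MT-TL2 (422 and 167; −1.61, −1.88 to −1.35), MT-TT (33 and 15) and MT-TH (189 and 102). MT-TE was the one that still passed with the trend on GC content and length removed. Their counts may include precursors as well as mature tRNAs. MT-TE and MT-ND6 are neighbours on the same strand of the genome, and MT-ND6 was among the mRNAs that fell. MT-TY, by contrast, stood at 0.11 (−0.08 to 0.30) and MT-TC at −0.01 (−0.22 to 0.20). Nuclear copies of mitochondrial genes gave 5 lower and none higher of 12, all below 0, and can share reads with the mitochondrial genome.

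The nuclear genes for the same machinery stayed nearer 0. Of 31 nuclear oxidative phosphorylation genes none passed, with a median of −0.15, and of 20 mitochondrial transcription and RNA factors none passed, with a median of −0.06. LRPPRC, which stabilises mitochondrial mRNAs, stood at −0.28 (−0.35 to −0.22). The mitochondrial calls depended on the joint adjustment for GC content and length and on scaling. That adjustment does not part GC content from length, and the measured mitochondrial tRNAs have a median length of 68 bases. With the trend on GC content and length removed, MT-ATP8 stood at −0.80, MT-ND6 at −0.89, MT-ND2 at −0.97 and MT-ATP6 at −0.98, so that all 4 mRNAs were under 2-fold. The median of the 15 was then −0.65. The median of all 31 mitochondrial genes, tRNAs included, went from −0.77 to −0.25, their lower calls from 8 to 1 (MT-TE, at −1.40) and those above 0 from 3 to 12. With library totals as the scale the median of the 15 was −0.61, and MT-ND2 (−0.95) was under 2-fold. The share of reads from the mitochondrial genome differed between the libraries, as given above.

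**Figure D3:**
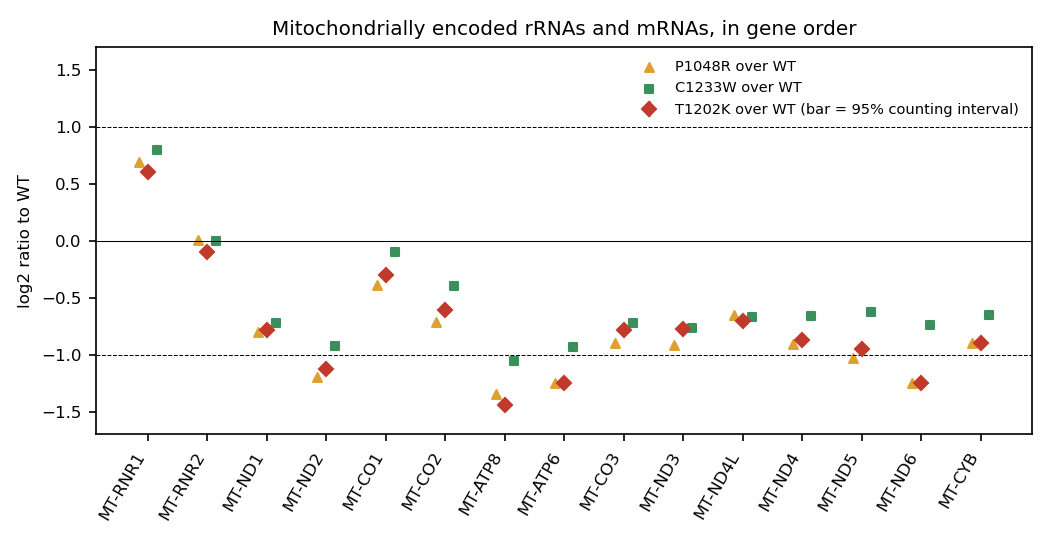
Log2 ratio to WT of the 15 mitochondrially encoded rRNA and mRNA genes in gene order for T1202K (with 95% counting intervals, smaller than the symbols), P1048R and C1233W, which all share the WT library. MT-RNR1 lies above 0 and MT-RNR2 near it, the mRNAs lie below, and MT-ATP8 is lowest at −1.44 in T1202K.

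Chromatin architectural and chaperone genes also lay low. Many of them are abundant, and the highest quintile of mean CPM (80.2 or more) had a median of −0.13. The part of level in the values of these lists was not tested. HMG proteins bend DNA or bind nucleosomes and are among the most plentiful non-histone proteins of chromatin. Of 10 HMG genes 1 was lower, HMGN5, beside 2.27% of all genes, and 9 had ratios below 0, with a median of −0.47. HMGN1 stood at −0.60 (−0.65 to −0.55), HMGB1 at −0.59 (−0.66 to −0.53) and HMGN2 at −0.49 (−0.54 to −0.44), so that each was resolved from 0 by counting but short of 2-fold. HMGA1 (−0.02, −0.09 to 0.05) was an exception. HMGN5 stood at 102 CPM in P1048R and 104 in C1233W, both nearer to the 80.2 CPM of T1202K than to the 229 CPM of WT.

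Heat shock chaperones fold nascent and damaged proteins, and the inducible ones are transcribed by HSF1 through heat shock elements. Of 14 HSP70 and HSP110 genes 1 was lower and none higher, beside 2.27% of all genes lower, with 13 below 0 and a median of −0.31. Of 20 HSP90, HSP40, small heat shock protein and co-chaperone genes none passed, with a median of −0.34. HSPA6, the strictly inducible HSP70, was the gene past the rule, with 129 reads in WT and 72 in T1202K (−1.11, −1.55 to −0.69). It had 39 reads in P1048R and 295 in C1233W, so its level differed in both directions among the mutants. A near-identical pseudogene makes the HSPA6 count uncertain, and with library totals as the scale its ratio was −0.94.

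HSP90AA1, the chaperone of the list with the most reads, went from 7419 CPM in WT to 4110 in T1202K (−0.85, −0.87 to −0.84). HSP90AB1 stood at −0.76 (−0.78 to −0.74), DNAJA1, an HSP40, at −0.75 (−0.81 to −0.68) and HSPA1A at −0.66 (−0.70 to −0.63). HSPA1A and HSPA1B (−0.34, −0.40 to −0.29) are nearly identical, so that reads may be divided between them. The heat shock factor genes pointed the other way: HSF1 stood at 0.40 (0.26 to 0.55) and HSF2 at 0.56 (0.43 to 0.70), neither past the rule. In the endoplasmic reticulum, the chaperones HSP90B1 (−0.88, −0.93 to −0.84) and HSPA5 (−0.71, −0.77 to −0.66) were also short of 2-fold, and none of 20 genes on that stress list passed.

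The promoter of HSPA6 is shown because it holds the heat shock element searched for. This was GAA, TTC and GAA, each parted from the next by 2 bases of any kind, on either strand. The window ran from 250 bases before to 50 after a RefSeq start (GRCh38.p14), with a single start kept per gene. Of 30 heat shock promoters found in RefSeq, 7 held it, against 0.502% of all 27305 promoters and 0.303% of the 10904 that belong to tested genes. The 180 bases before the start lie at chr1:161524360-161524539, plus strand, with the match in capitals.
HSPA6: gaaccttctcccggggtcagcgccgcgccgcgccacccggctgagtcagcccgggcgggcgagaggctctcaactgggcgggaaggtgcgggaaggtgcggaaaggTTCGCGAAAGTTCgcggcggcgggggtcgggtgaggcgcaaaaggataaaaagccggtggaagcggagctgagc
The 7 genes with the letters had a median ratio of −0.57 and the 23 without −0.29, as a description of these genes only.

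Interferon-stimulated genes encode antiviral proteins and are switched on by a complex that contains IRF9 and binds the interferon-stimulated response element. Of 39 listed genes 28 were measured, of which 5 were lower in T1202K (17.9%, beside 2.27% of all genes) and none higher, with a median of −0.26. IFIT1 had 157 reads in WT and 74 in T1202K (−1.36, −1.78 to −0.95), and IFIT3, which forms a complex with it on foreign RNA, had 28 and 12 (−1.47, −2.61 to −0.48). SAMD9, an antiviral factor gene, had 201 and 112 reads (−1.12, −1.47 to −0.78), or −0.94 with library totals as the scale. IFI44L had 17 and 5 reads (−1.95, −3.84 to −0.54), and IRF9 had 22 and 9 (−1.52, −2.87 to −0.39). The 5 genes thus include the DNA-binding subunit of the complex and 4 of its targets, at low counts.

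Other members did not share the direction. ISG15, a ubiquitin-like protein gene, had 40 reads in WT and 84 in T1202K (0.78, 0.23 to 1.37), and IRF7 had 61 and 119 (0.68, 0.23 to 1.16). In P1048R and C1233W, IFIT1 was at 5.78 and 9.38 CPM, against 16.8 in WT and 6.53 in T1202K. IFI44L was at 1.93 CPM in C1233W, level with the 1.82 CPM of WT, and at 0.503 CPM in P1048R.

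The promoters of the lower members are shown for the response element, searched as GAAA and GAAA parted by 2 bases of any kind, on either strand of the same window. It was present in 18 of 23 interferon-stimulated promoters in the table, against 3.65% of all 27305 and 2.73% of the 10904 that belong to tested genes. Of the 5 lower genes 4 held it, and IRF9 did not. The 180 bases before each start follow in the direction of the gene, with matches on either strand in capitals, at chr10:89392443-89392622 (plus strand), chr10:89327817-89327996 (plus), chr7:93117980-93118159 (minus) and chr1:78620268-78620447 (plus).
IFIT1: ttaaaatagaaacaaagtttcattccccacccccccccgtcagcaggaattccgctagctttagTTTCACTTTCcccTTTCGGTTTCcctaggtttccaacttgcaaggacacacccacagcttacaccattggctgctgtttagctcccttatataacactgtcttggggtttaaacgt
IFIT3: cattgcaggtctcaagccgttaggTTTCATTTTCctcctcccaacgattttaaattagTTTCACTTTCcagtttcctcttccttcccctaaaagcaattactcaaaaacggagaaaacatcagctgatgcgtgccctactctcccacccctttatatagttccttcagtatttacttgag
SAMD9: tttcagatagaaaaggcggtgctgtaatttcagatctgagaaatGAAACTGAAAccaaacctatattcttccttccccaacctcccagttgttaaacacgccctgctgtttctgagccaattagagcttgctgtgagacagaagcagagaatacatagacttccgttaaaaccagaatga
IFI44L: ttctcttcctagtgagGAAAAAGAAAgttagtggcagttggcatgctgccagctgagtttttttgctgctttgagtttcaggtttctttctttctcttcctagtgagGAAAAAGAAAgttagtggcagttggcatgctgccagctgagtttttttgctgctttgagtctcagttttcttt
The letters did not sort the list, since ISG15 also held them. The 18 genes with them had a median ratio of −0.34 and the 5 without −0.17.

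Genes of the amino acid response had mostly positive ratios, few of them past the rule. ATF4 is the transcription factor made when uncharged tRNAs or other stresses slow translation, and it induces amino acid import, synthesis and tRNA charging. Of 19 ATF4 regulators and targets 2 were higher (10.5%, beside 2.99% of all genes) and none lower, 17 had ratios above 0, and the median was 0.46. TRIB3, a pseudokinase gene that feeds back on ATF4, had 96 reads in WT and 300 in T1202K (1.36, 1.03 to 1.71). GPT2, the mitochondrial alanine transaminase, stood at 37.2 and 75.8 CPM (1.02, 0.84 to 1.21). Close below the rule were ATF3 (0.94, 0.82 to 1.06) and SESN2, an mTORC1 inhibitor gene (0.87, 0.68 to 1.07). ATF4 mRNA stood at 0.18 (0.10 to 0.26).

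Of 15 amino acid transporters measured 3 were higher and none lower, beside the same 2.99%. SLC3A2, the heavy chain that carries several transporters to the membrane, was at 102 CPM in WT, 239 in T1202K, 221 in P1048R and 219 in C1233W (1.23, 1.12 to 1.34). SLC7A11, its cystine-importing partner, was at 16.5, 33.3, 40.7 and 112 CPM in the same order (1.01, 0.74 to 1.29). SLC6A9, a glycine transporter gene, had 20 reads in WT and 82 in T1202K (1.73, 1.04 to 2.54). The glutamine transporter SLC38A2, with the most reads of the list, stood at −0.38 (−0.45 to −0.30), so the transporters did not share a direction.

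Of 20 cytosolic aminoacyl-tRNA synthetases 1 was higher, beside 2.99% of all genes, the cysteine enzyme CARS (1.07, 0.91 to 1.23). Of 15 asparagine, serine and proline enzymes none passed, with a median of 0.23. PYCR1, of proline synthesis, stood at 0.68 (0.53 to 0.84), and ASNS, asparagine synthetase and a classical ATF4 target, at 24 and 38 reads (0.38, −0.39 to 1.19). The element TGATGNAA, the core of the site that ATF4 binds with C/EBP proteins, was in 7 of 43 promoters of these lists. It was in 3.75% of all promoters and in 1.66% of the 10904 that belong to tested genes. None of the 3 genes past the rule that have a promoter in the table held it. After removal of the trend on GC and length, GPT2 was under 2-fold and the median of the ATF4 list was 0.32.

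Small nucleolar RNA host genes moved apart from one another. Their spliced exons are mostly non-coding and are turned over by nonsense-mediated decay, while the introns yield small nucleolar RNAs for rRNA modification. Of 19 host genes 5 were higher and 1 lower (2.99% and 2.27% of all genes), with a median of 0.19. EPB41L4A-AS1 rose from 109 reads to 408 (1.62, 1.32 to 1.95), SNHG17 from 249 to 704 (1.22, 1.01 to 1.44), SNHG15 from 393 to 1080 (1.18, 1.01 to 1.35), SNHG12 from 147 to 398 (1.16, 0.88 to 1.44) and SNHG11 from 64 to 166 (1.09, 0.67 to 1.54). SNHG19 fell from 42 reads to 20 (−1.33, −2.19 to −0.55). GAS5, with the most reads, stood at 0.41 (0.30 to 0.52), and SNHG4 and SNHG3 at −0.67 (−0.87 to −0.46) and −0.52 (−0.73 to −0.31). Exons of EPB41L4A-AS1 and SNHG12 overlap those of other genes, and SNHG11 was under 2-fold with the GC and length trend removed.

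Zinc finger genes were numerous on the higher side. Most of them bind DNA through arrays of C2H2 fingers, and many carry a KRAB domain that recruits TRIM28 to silence transposable elements. Of 407 measured genes with a numbered ZNF symbol 32 were higher (7.86%) and 1 was lower (0.246%), beside 2.99% and 2.27% of all genes. The family had a median of 0.28, and 312 of the 407 had a ratio above 0. Of the members past the rule, ZNF416 had the largest ratio. ZNF418 and ZNF860 followed, each with only 5 reads in WT and 21 in T1202K (1.69, 0.35 to 3.56). Next were ZNF467 (63 reads in WT and 219 in T1202K; 1.51, 1.11 to 1.95), ZNF213 (120 and 415; 1.51, 1.22 to 1.82), ZNF79 (78 and 255; 1.43, 1.06 to 1.82) and ZNF16 (119 and 382; 1.40, 1.11 to 1.71). ZNF410, which is known for its dedicated control of CHD4, was the lower gene, with 26 and 14 reads (−1.15, −2.22 to −0.18).

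The pattern was not limited to the large clusters of chromosome 19. Of 194 zinc finger genes there 11 were higher and none lower, with a median of 0.31, and of 213 elsewhere 21 were higher and 1 lower, with a median of 0.25. The other 871 genes of chromosome 19 had 33 higher and 30 lower, with a median of 0.14. The family has a median GC content of 43.4% against 48.0% for all genes tested, but its 32 higher members have 55.6%, near the 55.5% of all higher genes. After removal of the trend on GC and length the median was 0.26, with 19 higher and 1 lower.

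Neuronal and signalling genes were unevenly represented. Of 31 synaptic and neuronal function genes measured 5 were higher (2.99% of all genes) and none lower, with a median of 0.30. RIMS2, an active zone scaffold gene, had 38 reads in WT and 160 in T1202K (1.78, 1.28 to 2.35). GABBR2, a GABA-B receptor subunit gene, had 30 and 122 (1.73, 1.16 to 2.37), and ADGRB2, an adhesion receptor gene, 137 and 468 (1.49, 1.22 to 1.78). The membrane fusion genes STX1A (72 and 199 reads; 1.18, 0.79 to 1.60) and SNAP25 (49 and 124; 1.05, 0.57 to 1.57) were the other members past the rule. NRXN3, a presynaptic adhesion gene, stood at −0.82 (−1.05 to −0.60), so the direction was not general. STX1A shares exon sequence with BUD23 and was under 2-fold with the GC and length trend removed. Of 24 adhesion genes 1 was higher, CELSR3, an atypical cadherin of axon guidance that rose from 140 reads to 474 (1.48, 1.21 to 1.76). Of 10 neuron markers 4 were measured, summing to 20.01 CPM in WT and 26.8 in T1202K. GAD1, a GABA synthesis gene, had 98 and 207 reads (0.80, 0.45 to 1.16), whereas the defining markers DCX, NEUROD1 and SLC17A6 had no read in either library. The part of such cells in the synaptic values was not tested.

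In the Notch pathway, ligands of one cell bind receptors of the next, and the released receptor fragment induces HES and HEY repressors. Of 18 genes 3 were higher (2.99% of all genes) and none lower, with a median of 0.31. They were the targets HES4 (212 reads in WT and 569 in T1202K; 1.15, 0.92 to 1.38) and HEY2 (214 and 521; 1.00, 0.77 to 1.24), and RFNG, a glycosyltransferase gene that tunes the receptors (147 and 361; 1.02, 0.74 to 1.31). The receptors NOTCH2 (−0.27, −0.35 to −0.19) and NOTCH1 (0.16, −0.15 to 0.46) and the target HES1 (−0.20, −0.37 to −0.03) did not pass. After removal of the trend on GC and length, the list had a median of 0.03 and none of these 3 genes past the rule. RFNG shares exon sequence with GPS1.

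Of 17 Wnt targets 2 were higher, SP5 (7 reads in WT and 31 in T1202K; 1.79, 0.66 to 3.30) and the Wnt deacylase gene NOTUM (13 and 43; 1.41, 0.53 to 2.47). AXIN2, a general target of the pathway, stood at −0.01 (−0.37 to 0.34). Beside the counts of this paragraph, 2.99% of all genes were higher and 2.27% lower. Of 18 ETS factors 3 were higher, which were ERF, an ERK-controlled repressor (318 and 822; 1.09, 0.90 to 1.28), ETV2 (3 and 24) and SPIB (5 and 20). Of 26 AP-1 and immediate early genes 1 was lower, FOSB (23 and 10; −1.44, −2.71 to −0.35), and none was higher. The median of that list was nevertheless 0.34, with 21 ratios above 0, among them KLF10 (0.93, 0.73 to 1.13) and JUND (0.77, 0.60 to 0.95). Of 14 MAP kinase phosphatase and Sprouty family genes DUSP8 alone passed. ERF and NOTUM did not pass with the GC and length trend removed.

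Single members passed in further stress and immune lists, beside 2.99% of all genes higher. PLK3, a stress kinase gene, was higher among 24 p53 genes (28 reads in WT and 80 in T1202K; 1.22, 0.60 to 1.91), whereas CDKN1A stood at 0.03 (−0.27 to 0.33) and MDM2 at −0.13 (−0.24 to −0.01). NFKBIE, an NF-kB inhibitor gene, was higher among 14 NF-kB genes (65 and 192; 1.28, 0.87 to 1.71). TFEB, the regulator of lysosome genes, was higher among 23 autophagy genes (46 and 181; 1.69, 1.23 to 2.20), while the lysosomal protein gene LAMP1 stood at −0.03 (−0.15 to 0.08). ANKRD37 was higher among 22 hypoxia genes, with 8 and 27 reads (1.42, 0.30 to 2.83), and it overlaps UFSP2. PLK3 and NFKBIE did not pass with the GC and length trend removed. Of 17 NRF2 targets, 13 BCL2 family genes and 18 TGF-beta targets none passed.

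Cell cycle and growth lists were nearly without calls, beside 5.26% of all genes past the rule. CDT1, which loads the replicative helicase at origins, was higher among 36 replication genes, at 71.4 CPM in WT and 179 in T1202K (1.33, 1.20 to 1.46). It stood at 179 CPM in P1048R and 173 in C1233W, and at 0.92 with the GC and length trend removed. MCM4, part of that helicase, stood at −0.07 (−0.13 to −0.02). Of 32 mitosis and spindle genes, 22 cohesin and condensin genes and 33 DNA repair genes none passed, with medians of −0.26, −0.26 and 0.15. The centromere genes CENPE (−0.79, −0.88 to −0.71) and CENPF (−0.75, −0.82 to −0.69) lay lowest among the mitotic genes, and CDC25C, which activates CDK1, highest at 0.70 (0.49 to 0.91).

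Replication-dependent histone mRNAs lack a poly(A) tail and peak in S phase. Of 20 listed 10 were measured, with 2 higher, beside 2.99% of all genes, and a median of 0.55. HIST1H4H had 18 reads in WT and 50 in T1202K (1.17, 0.39 to 2.06), and HIST2H4A had 6 and 51 (2.71, 1.59 to 4.32), with a near-identical copy, HIST2H4B, that shares its sequence. None of 40 ribosomal protein genes on the list passed, with a median of −0.13, but the list does not hold RPS27, which was lower (−1.06). Likewise none of 26 ribosome biogenesis, 30 proteasome, 24 SR and hnRNP, 18 glycolysis, 22 cholesterol or 14 tubulin genes passed. TOP2A (−0.60, −0.64 to −0.56), NCL (−0.67, −0.70 to −0.64) and HNRNPA2B1 (−0.66, −0.69 to −0.64), the members of their lists with the most reads, were each below 0 but short of 2-fold.

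HOX genes, which pattern the body axis and are classical targets of Polycomb and SWI/SNF, gave no call. Of 36 measured 7 had ratios above 0, with a median of −0.24, or −0.03 with library totals as the scale. HOXB9, with the most reads, stood at −0.03 (−0.12 to 0.06). HOXA4, at 76 reads in WT and 46 in T1202K, lay nearest to the rule but just short of it. Of 23 Polycomb and H3K27 regulators none passed, with a median of 0.07. Among 28 matrix genes, COL5A3 was higher and COL6A3 lower (2.99% and 2.27% of all genes), with a median of −0.28. Of 11 TALE homeobox genes PBX4 alone passed, and PBX2, with the most reads, stood at −0.41 (−0.52 to −0.30). CNN1, a smooth muscle actin-binding protein gene, was lower among 20 actin, SRF and YAP targets (23 and 10 reads; −1.44, −2.71 to −0.35).

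Classes of transcripts differed in their shares of calls, and also in level of expression. Median CPM was 1.77 for sense intronic and 1.84 for antisense transcripts, both within the lowest quintile of mean CPM (0.53 to 3.16). In that quintile 6.46% of genes were higher and 8.67% lower, beside 2.99% and 2.27% of all genes. The part of level in the class counts was not tested. Of 13161 coding genes 356 were higher and 144 lower, with a median of 0.01. Library totals gave 620 and 82, and removal of the GC and length trend 249 and 192. Sense intronic transcripts lie within introns of a host gene on its own strand. They gave 0 higher and 16 lower (16.2%) of 99, with a median of −0.59. The 16 became 7 with library totals as the scale and 10 after removal of the GC and length trend. For 81 of them with a coding host that was measured, 14 were lower and 66 lay below their host. Their median was −0.59, while the median of the 75 hosts was 0.05. Such counts may include unspliced host RNA. Antisense transcripts gave 30 higher (4.05%) and 61 lower (8.24%) of 740, no more than the shares of the lowest level quintile, with a median of −0.26. With library totals as the scale they gave 45 and 42, so their balance depended on scaling. Whether counting used strand is not stated, so antisense and overlapping genes have uncertain counts.

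Pseudogenes divided by origin. Processed pseudogenes, which are reverse-transcribed copies of mRNAs, gave 12 higher and 54 lower of 359, with a median of −0.39. The shares of all genes were 2.99% higher and 2.27% lower. The class had a median of 1.89 CPM, with 3.34% higher and 15.04% lower. In the lowest quintile of mean CPM, 6.46% of genes were higher and 8.67% lower. The processed pseudogenes gave 22 and 36 with library totals as the scale, and 21 and 29 (median −0.22) after removal of the GC and length trend. Among 258 that could be paired with a measured parent gene by name, 8 were higher and 37 lower, with a median of −0.38. Their 171 parents had a median of −0.26 with 1 higher and 1 lower, and 137 of the 258 pseudogenes lay below their parent. Reads of a pseudogene can come from its parent, since how multiply aligned reads were handled is not stated. The pseudogenes of PTMA gave 4 lower of 5, and the parent stood at −0.91 (−0.95 to −0.87). Those of NPM1 gave 3 lower of 5 with the parent at −0.65 (−0.68 to −0.63), and those of HSP90 genes 3 lower of 4. Pseudogenes of large-subunit ribosomal proteins gave 10 lower and none higher of 43. Among their parents, RPL23A stood at −0.86 and RPL41 at −0.79, but RPLP0 at −0.04, RPL3 at 0.12 and RPL13 at 0.37. Pseudogenes of small-subunit ribosomal proteins gave 2 higher and 3 lower of 26.

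Transcribed unprocessed pseudogenes, which arise by duplication of a genomic segment, went the other way, with 24 higher and 4 lower of 227. Their median was 0.21, and of all genes 2.99% were higher and 2.27% lower. Several families of duplicated genes, whose copies belong to this and to other pseudogene classes, were chosen for description after their values were seen. Of 6 measured copies of SMG1, a kinase of nonsense-mediated decay, 4 were higher, at 1.16 to 1.77, whereas SMG1 itself stood at −0.09 (−0.16 to −0.02). SMG1P2 had 24 reads in WT and 101 in T1202K, and SMG1P7 was at −0.16 (−0.58 to 0.26). Of 4 copies of the chaperonin gene CCT6A 2 were measured and both were higher, CCT6P1 with 91 and 336 reads (1.60, 1.27 to 1.96) and CCT6P3 at 48 and 183 (1.64, 1.19 to 2.14), while CCT6A stood at −0.47 (−0.53 to −0.42). Of 8 copies of the WASH gene 4 were higher and 1 lower, and the source gene WASHC1 stood at 0.94 (0.51 to 1.39). For SMG1 and CCT6A, then, the copies past the rule and the source gene lay on opposite sides of 0.

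Base composition moved with the direction of the call. Genes higher in T1202K had a median GC content of 55.5% and a median length of 2561 bases, and genes lower had 45.9% and 1881. Genes past neither limit had 47.9% and 3518.5. Among the 3126 genes of the highest GC quintile (57.7% to 76.8%), 6.62% were higher and 1.57% lower, with a median of 0.24. Among the 3126 of the lowest quintile (23.1% to 40.9%), 1.12% were higher and 2.59% lower, with a median of −0.13. The share of higher genes increased with each quintile of GC, through 1.79%, 2.59% and 2.82%. With a mean of at least 10 CPM required, 80 genes of the highest quintile were higher and 5 lower. The excess of lower genes in the lowest quintile depended on scaling. Library totals gave 83 higher and 57 lower there, with a median of 0.04 beside 0.17 for all genes. In the highest quintile they gave 334 higher and 25 lower, with a median of 0.41. Whether base composition has a part in single calls was not tested.

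**Figure D4:**
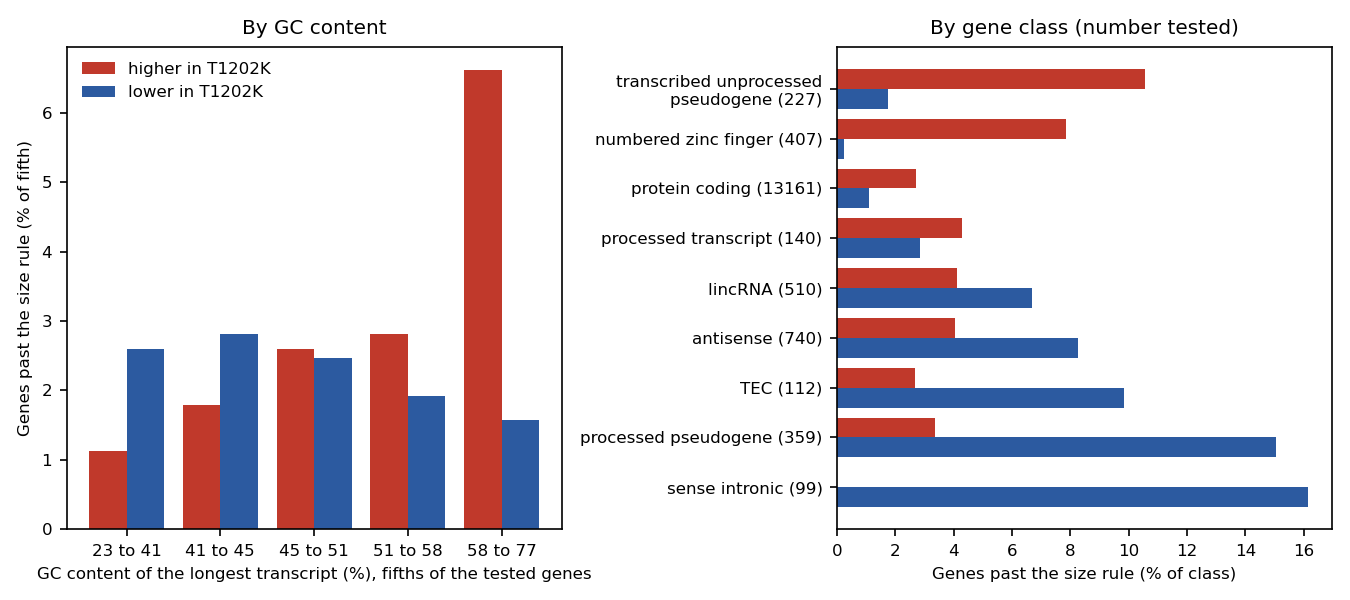
Share of genes past the size rule, higher (red) and lower (blue) in T1202K, by quintile of GC content of the longest transcript (left) and by gene class with the number tested (right). The share of higher genes increases from 1.12% to 6.62% with GC content, and sense intronic transcripts show lower genes only (16 of 99).

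The share of genes called moved with the level of expression. In the lowest quintile of mean CPM 6.46% of genes were higher and 8.67% lower, and in the highest 0.224% and 0.416%. Called genes were spread over the chromosomes, with no chromosome other than the mitochondrial one above 5.08% higher (chromosome 22) or 4.58% lower (chromosome 21). Among 492 windows of 1 Mb with at least 10 genes, chosen for description after their values were seen, the most genes higher lay at 30 to 31 Mb of chromosome 16, with 8 of 47, among them ZNF48, ZNF689, PRR14 and SMG1P5. The window that begins at 1 Mb of chromosome 11 held 4 higher (BRSK2, DUSP8, KRTAP5-AS1 and KRTAP5-1) and 2 lower (MUC6 and the imprinted RNA H19) of 10 genes. The GC content of both windows was high, with medians of 58.6% and 62.8%.

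Few genes set T1202K apart from all 3 other libraries. A gene counted as apart when it passed the rule in the same direction against WT, P1048R and C1233W, and 2 did so upward (0.0128%) and 9 downward (0.0576%). PRR26 was the clearest, with 15 reads in T1202K against 67 in WT, 38 in P1048R and 48 in C1233W. LINC00106 had 12 reads in T1202K against 50, 35 and 25 in the same order. The others that were lower were the meiotic mismatch repair gene MSH4 (11 against 21, 27 and 22), the potassium channel gene KCNN3 (17 against 31, 38 and 48), CNTD1, a meiotic crossover gene (8 against 21, 23 and 18), and the non-coding genes AC022272.1, AF129075.1, AL391422.4 and AL928654.2.

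Upward, LPAL2, a pseudogene of the apolipoprotein(a) family, had 16 reads in T1202K against 1 in WT, 5 in P1048R and 4 in C1233W. NDUFV2P1 had 28 against 6, 9 and 6. Except for PRR26 and LINC00106, no library held more than 48 reads of any of these 11 genes. At that depth single genes are weakly resolved, and the 11 do not share a pathway on the lists used.

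Markers of the labelled cell type and of others were checked. Of 17 kidney developmental factor genes 13 were measured and none passed, with summed levels of 290 CPM in WT and 308 in T1202K. SALL1, FOXD1 and GATA3 were among those with the most reads, whereas HNF4A had no read in either library. Of 16 markers of mature kidney segments 4 were measured, with summed levels of 96.5 and 71.1 CPM. CUBN, the endocytic receptor cubilin, was higher (16 reads in WT and 42 in T1202K; 1.09, 0.25 to 2.05), while its partner LRP2 stood at −0.67 (−0.88 to −0.47), and UMOD and CDH16 were at 0 reads. The cells thus carried kidney developmental factor genes and few markers of mature kidney segments.

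Blood cell markers summed to 7.28 CPM in WT and 4.86 in T1202K over the 3 of 14 measured. CD4 was lower among them, with 21 and 8 reads (−1.62, −3.05 to −0.44), but CD3D, CD3E, MS4A1 and HBB were at 0 reads in both libraries. Fibroblast and endothelial markers (4 of 11 measured) summed to 10.5 and 9.27 CPM, with no call there or among the neuron markers. No keratinocyte or carcinoma marker of 12 was measured.

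At the 2-fold limit the genes just inside and just outside differed by little. WASH2P (24 reads in WT and 59 in T1202K) and PITPNM2 (66 and 161) lay just inside on the higher side, and STXBP5L (46 and 112) and AL137003.1 (15 and 37) just outside. CCDC80 (210 and 127) and PRSS35 (78 and 47) lay just inside on the lower side, and ARHGEF10 and CYP2J2 (30 and 18 each) just outside. The 4 genes just inside did not pass when 2 in place of 0.5 was added to each count.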

How the data were processed

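RNA-seq counts were deposited by the authors as raw counts per gene for 4 libraries, 1 per construct. Per the submitters' processing notes, Trim Galore, HISAT2, featureCounts and hg38 were used; no source used here gives their versions, the strand setting or the annotation release. All 58735 gene IDs matched GENCODE 29 (GRCh38), the source of classes, GC content and length.

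Counts were scaled with TMM factors (edgeR 4.0.16, R 4.3.3). Genes at 1 CPM or more in WT or T1202K were kept. Ratio intervals are exact binomial (Clopper-Pearson), level intervals exact Poisson, at 95%, for counting error only, and reads carry no molecular identifiers. The calculation was tested on simulated counts. Alternatives were DESeq2 1.42.0 size factors, other scalings and filters, thinned counts and removal of a GC and length trend. For transcript classes, zinc finger genes, all mitochondrial genes and GC quintiles, the alternative settings were chosen after seeing the data. A mean of at least 10 CPM was among these. Promoters came from RefSeq (GRCh38.p14).

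Named genes were the 12 coding and 5 other genes in each direction whose intervals lay farthest from 0, list members past the rule, genes nearest the limit, and each list's member with the highest CPM. Other genes were named for contrast after their values were seen. The members and lists were chosen with earlier results of these data known, so list counts are descriptions and not independent evidence. Some list members are not reported here.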

Additional observations from a re-analysis of the deposited data

Results flagged for a closer look

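HSPA6, the inducible HSP70 gene, went in opposite directions in the libraries of 2 mutants set against the same WT library. Its log2 ratio was −1.11 (−1.55 to −0.69) in T1202K and 1.04 (0.74 to 1.36) in C1233W, from 129 reads in WT, 72 in T1202K and 295 in C1233W. The difference between these effects was not tested, since each construct has 1 library and both share WT. A near-identical pseudogene makes the count uncertain, and with library totals as the scale the T1202K ratio was −0.94.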

How the results depend on the processing

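No paired analysis was possible because each construct has 1 library, and for the same reason no replicate could be left out. The total of 822 genes past the size rule lay between 736 and 973 under DESeq2 size factors, TMM of the 2 libraries, library sizes without PBRM1 and mitochondrial genes, no filter, 2 added to each count, thinned counts and removal of the GC and length trend. With library totals 798 genes were higher and 216 lower. With at least 5 CPM required, 327 of 11892 genes tested passed (252 higher, 75 lower), against 822 of 15631 in the main setting. That filter takes out genes of low level, among which calls were most frequent. With the whole interval past 2-fold 123 passed (89 higher, 34 lower). The PBRM1 log2 ratio of −0.58 was −0.56 with DESeq2 size factors, −0.54 with TMM of the 2 libraries and −0.40 with library totals. Of 83 named genes past the rule, 7 missed it with library totals and 20 with the trend removed. None changed direction, but the shifts from scaling were too small to reverse a 2-fold ratio. List medians changed sign for 14 of 49 lists with library totals and for 7 with the trend removed. Library totals move every ratio by the same amount, and the all-gene median went from −0.01 to 0.17. The 14 medians had been at most 0.163 in size. The 7 medians had been at most 0.0776 in size, and the cause of their change was not tested. Depth limits genes under about 20 reads, 196 of the genes called, to wide intervals.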
